A study of Saccharomyces cerevisiae with 8 samples.

Results

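The mitochondrial retrograde pathway of Saccharomyces cerevisiae was followed here through 7 of the 5449 genes measured, taken by symbol from the probe annotation. Of these, 4 encode regulators (RTG1, YOL067C; RTG2, YGL252C; RTG3, YBL103C; MKS1, YNL076W) and 3 encode classical targets (CIT2, YCR005C; DLD3, YEL071W; PYC1, YGL062W). Each had 1 probe set. The cells were the haploid laboratory strain BY4741, grown at 30 °C in rich glucose medium (YPD) until saturated. All groups share the 2% isopropanol that dissolved TFM. The controls (n = 2) were sampled at time zero with solvent alone, and the other groups after 1 h (n = 2), 2 h (n = 2) or 4 h (n = 1) in 0.05 mM TFM, where the 4 h sample was read on 2 technical arrays that were averaged. TFM is spelled out in none of the labels; it is the common name of a nitrophenol lampricide that acts as an uncoupler of oxidative phosphorylation. A solvent control is given for time zero alone, so the hours elapsed and the exposure to TFM cannot be told apart in any comparison with time zero.

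The retrograde pathway carries a signal from mitochondria to the nucleus. When respiration fails or glutamate is short, Rtg2 binds Mks1, and the paired transcription factors Rtg1 and Rtg3 move into the nucleus. Mks1 that is not held by Rtg2 joins the 14-3-3 proteins Bmh1 and Bmh2 and keeps the pair in the cytosol. The targets supply citrate, oxaloacetate and 2-oxoglutarate, the last being the precursor of glutamate, and CIT2 is the usual reporter of the pathway in yeast. Much of this control acts through the location and phosphorylation of the proteins, which an array of transcripts does not measure.

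Values are RMA signals on the log2 scale, so a difference of 1 is a 2-fold change. The deleted marker genes URA3, LEU2 and MET17 read at most 6.17 on any array, and HIS3, of which the strain keeps a part, between 11.95 and 12.18. The MATa genes MFA1, MFA2, STE2 and BAR1 had means above the 25th percentile of all probe sets (10.01), while 3 of 4 MATalpha genes had means below it and SAG1 did not. Genes with a mean below that level are called dim here, and RTG1 was the 1 dim gene among the 7. Ribosomal RNA probe sets, 17 in number, had array medians of 9.76 and 9.97 at time zero and of 10.5 to 13.0 thereafter. Averaged over 10 pairs of 3′ and 5′ control probe sets, the 3′ minus 5′ difference, a measure of RNA integrity, was 1.55 in control replicate 1 and between 1.25 and 1.36 on the other arrays. A bulk extract cannot separate fewer transcripts per cell from fewer cells that carry them.

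None of the 7 retrograde genes passed the test against time zero at any time. In limma, 0 of 7 passed at 1 h, when 4.99% of all genes did, 0 of 7 at 2 h (0.11% of all genes) and 0 of 7 at 4 h (4.46% of all genes). The F test over the 3 times likewise called 0 of 7, against 6.51% of all genes. With shares this low among all genes, 0 of 7 is near the background. At an unadjusted p under 0.05 the counts were 0 at 1 h, 1 at 2 h (PYC1), 1 at 4 h (MKS1) and 1 in the F test (MKS1), where 27.5%, 12.3%, 19.8% and 30.8% of all genes lay under that value.

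The intervals say how large a change could have been missed. All 7 genes had 95% intervals within 2-fold of time zero in each of the 3 comparisons, as did 94.1%, 97.8% and 94.1% of all genes at 1 h, 2 h and 4 h. At 1 h the intervals of 7 of 7 genes also lay within 1.5-fold (0.585 on the log2 scale), as did those of 78.1% of all genes. At 2 h and at 4 h this held for 6 of 7, RTG1 being the exception both times, against 88.1% and 71.2% of all genes. These intervals are for 1 gene and 1 time each and are not adjusted for their number.

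**Figure D1:**
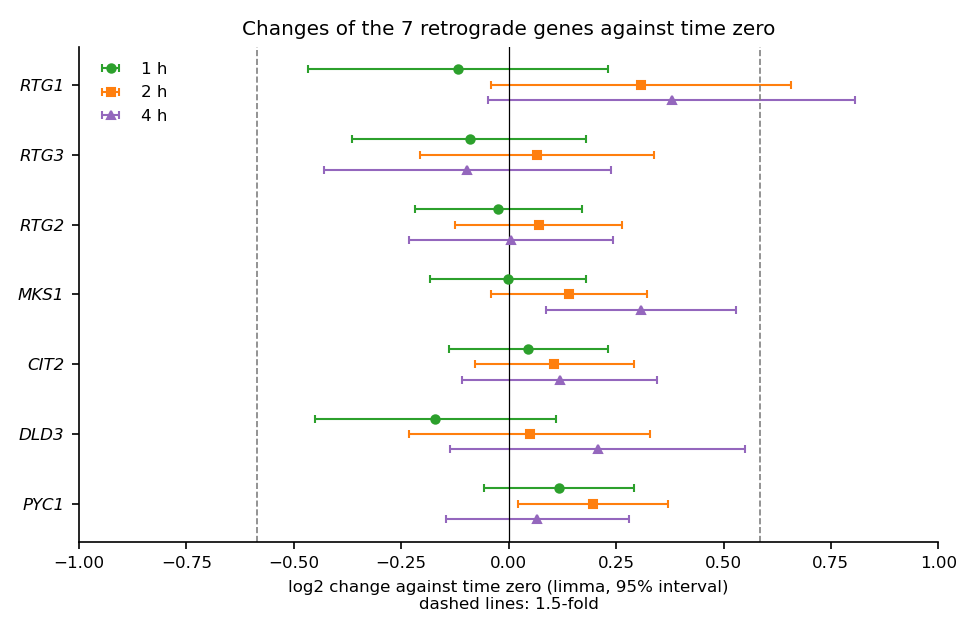
The log2 change of each retrograde gene against time zero (horizontal axis) at 1 h, 2 h and 4 h of TFM, with limma's 95% interval as bars; dashed lines mark 1.5-fold. Only the RTG1 intervals at 2 h and 4 h cross a dashed line, and only those of PYC1 at 2 h and MKS1 at 4 h leave out 0.

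Among the regulators, RTG1 had the largest point estimate and the least certain one. RTG1 encodes a basic helix-loop-helix factor that binds target promoters together with Rtg3. For RTG1 the controls gave log2 signals of 9.42 and 9.85, the 1 h samples 9.59 and 9.44, the 2 h samples 9.93 and 9.96 and the 4 h arrays 10.05 and 9.97. The 2 h and 4 h samples all lay above both controls and both 1 h samples, but the controls themselves differed by more than replicate 2 differed from the later samples. The change was 0.31 (SE 0.15, adjusted p = 0.466) at 2 h and 0.38 (SE 0.18, adjusted p = 0.294) at 4 h. The size depended on which control was kept. Leaving out control replicate 1 made the 4 h change 0.16, and leaving out replicate 2 made it 0.59. At 2 h these values were 0.09 and 0.52. Control replicate 1 also had the highest 3′ minus 5′ difference, and whether that bears on its RTG1 signal was not tested.

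RTG3, which encodes the partner of Rtg1 and carries the activation domain of the pair, stayed near its starting level. For RTG3 the controls gave log2 signals of 10.54 and 10.51, the 1 h samples 10.33 and 10.54, the 2 h samples 10.71 and 10.48 and the 4 h arrays 10.45 and 10.40. Both controls lay inside the range of the 1 h samples and of the 2 h samples, and the 4 h sample lay below both controls. The estimates were -0.09 (SE 0.11) at 1 h, 0.07 (SE 0.11) at 2 h and -0.10 (SE 0.14, adjusted p = 0.75) at 4 h. The sign at 2 h rested on replicate 1, without which the value was -0.05.

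RTG2 encodes the cytosolic activator that takes up Mks1. It varied least among the regulators, over 0.18 log2 units across the 7 RNA samples, and 8.7% of all genes had a range as small or smaller. For RTG2 the controls gave log2 signals of 11.70 and 11.64, the 1 h samples 11.59 and 11.70, the 2 h samples 11.77 and 11.71 and the 4 h arrays 11.63 and 11.72. The 2 h samples lay just above both controls, and the others overlapped them. At 4 h the fold against time zero was 1.00, with a 95% interval from 0.851 to 1.18.

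MKS1, the negative regulator, had the smallest adjusted p of the 7 genes in the F test, 0.146. For MKS1 the controls gave log2 signals of 11.02 and 11.06, the 1 h samples 11.08 and 10.99, the 2 h samples 11.17 and 11.19 and the 4 h arrays 11.38 and 11.32. The order was control and 1 h together, then 2 h, then 4 h, with no overlap between the 1 h, 2 h and 4 h samples. The fold at 4 h was 1.24 (95% interval 1.06 to 1.44), with an adjusted p of 0.134 that missed the threshold. The log2 change at 4 h was 0.31 and stayed between 0.28 and 0.34 over 15 alternative settings, whose adjusted p ranged from 0.0174 to 0.331. It passed in the 1 setting that counted the technical 4 h arrays as separate samples.

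**Figure D2:**
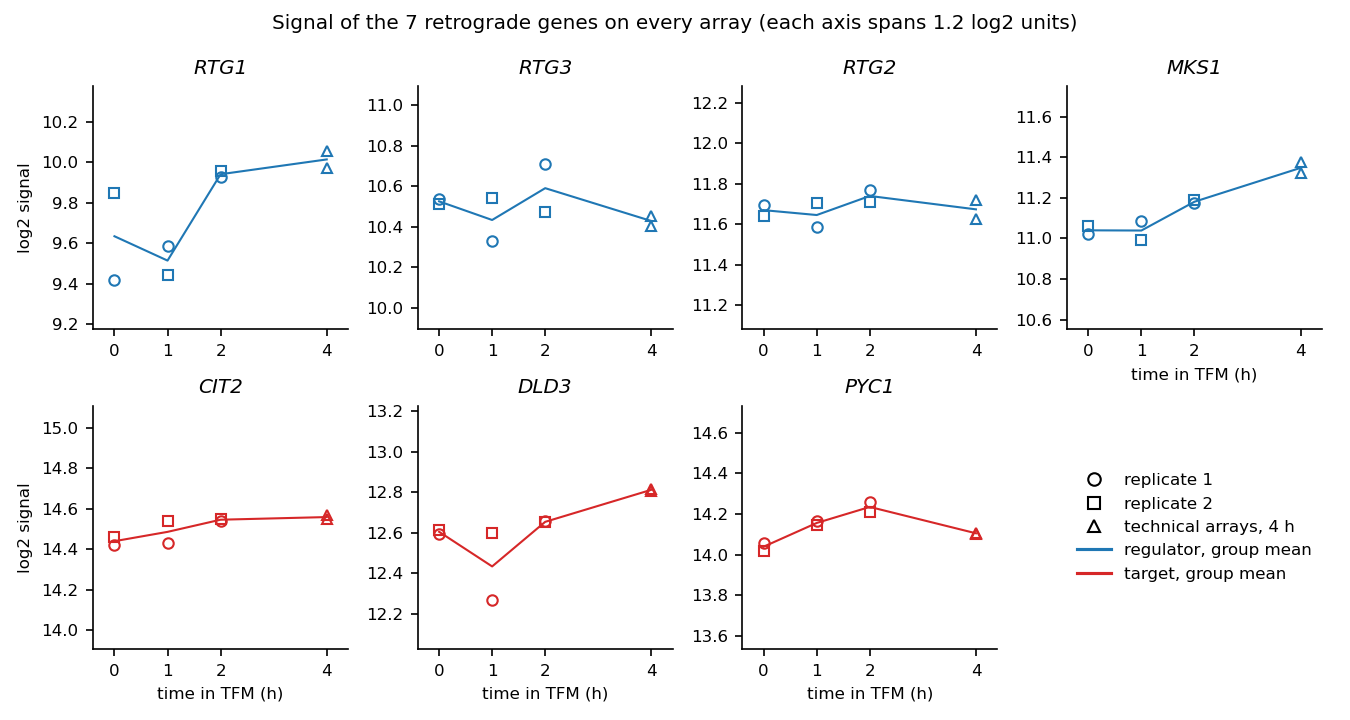
The log2 signal (vertical axis, spanning 1.2 log2 units in each panel) of the 7 retrograde genes by hours in TFM (horizontal axis); open symbols are arrays and lines join group means. The RTG1 controls stand apart at 9.42 and 9.85, 1 h replicate 1 of DLD3 stands alone at 12.27, and the CIT2 points stay between 14.42 and 14.57.

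Of the targets, CIT2 changed little in absolute terms. It encodes the peroxisomal citrate synthase, which joins acetyl-CoA to oxaloacetate in the glyoxylate cycle. For CIT2 the controls gave log2 signals of 14.42 and 14.46, the 1 h samples 14.43 and 14.54, the 2 h samples 14.54 and 14.55 and the 4 h arrays 14.57 and 14.55. The 2 h and 4 h samples lay above both controls by small margins, and the 1 h samples overlapped them. The folds were 1.03 at 1 h, 1.08 at 2 h (95% interval 0.947 to 1.22) and 1.09 at 4 h (95% interval 0.928 to 1.27). The range over the 7 RNA samples was 0.14, and 3.2% of all genes had one as small or smaller. The brightest probe set of each array read between 14.91 and 15.01, so CIT2 was near the top of the scale already at time zero, and whether the array compresses differences at that level was not tested.

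DLD3 encodes a cytosolic enzyme of the D-lactate dehydrogenase family that acts on D-2-hydroxyglutarate. For DLD3 the controls gave log2 signals of 12.59 and 12.62, the 1 h samples 12.27 and 12.60, the 2 h samples 12.66 and 12.65 and the 4 h arrays 12.82 and 12.81. The 4 h sample was the highest of the 7, the 2 h samples were just above the controls, and 1 h replicate 1 was the lowest. The estimates were -0.17 (SE 0.12) at 1 h and 0.21 (SE 0.14, adjusted p = 0.464) at 4 h. The 1 h value came from replicate 1 alone: it was 0.00 without that sample and -0.34 without replicate 2.

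PYC1, which encodes a cytosolic pyruvate carboxylase that makes oxaloacetate, had all 5 treated samples above both controls, as did 5.98% of all genes. On the deposited scale it was the 1 gene of the 7 that did, but CIT2 and MKS1 joined it after median centring (8.92% of all genes) and MKS1 after quantile normalisation (7.47%). For PYC1 the controls gave log2 signals of 14.06 and 14.02, the 1 h samples 14.16 and 14.15, the 2 h samples 14.26 and 14.21 and the 4 h arrays 14.10 and 14.11. The 2 h samples were highest and the 4 h sample lay between the 1 h samples and the controls. The fold was 1.15 (95% interval 1.02 to 1.29) at 2 h, with an adjusted p of 0.363, and 1.05 at 4 h. The estimates were positive at all 3 times in 15 of 15 alternative settings, and none of those settings called it.

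At 2 h the point estimates of 7 of 7 genes were positive, with a median of 0.11, while 43.8% of all genes had a positive estimate and their median was -0.02. Both 2 h samples lay above both controls for 6 of 7 genes (all but RTG3), against 21.1% of all genes. The count was 6 of 7 after median centring and after quantile normalisation as well, when 26.5% and 24.9% of all genes lay so. A positive shift of retrograde genes at 2 h was known from earlier results on these arrays when the genes were chosen, so the count is a description. At 1 h, 1 of 7 lay above both controls (PYC1; 23.5% of all genes), with a median change of -0.02. After median centring that count was 3 (31.2% of all genes) and the median 0.03. After quantile normalisation they were 2 (24.5%) and 0.02, so the sign at 1 h turned with the scaling. The median of all genes at 1 h was -0.03 as deposited, 0.03 after median centring and -0.02 after quantile normalisation. At 4 h, 5 of 7 lay above (38.4% of all genes) and RTG3 below (40.3% of all genes), with a median of 0.12. Median centring made the count 6 of 7 (43.5% of all genes) and the median 0.15. With quantile normalisation they were 5 of 7 (42.3%) and 0.07. The median of all genes at 4 h was -0.003 as deposited, 0.03 after median centring and 0.02 after quantile normalisation.

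The times were also compared with each other. From 1 h to 2 h, 0 of 7 genes passed in limma (2.64% of all genes), and 1, RTG1, had an unadjusted p under 0.05 (22.3% of all genes). From 2 h to 4 h, 0 of 7 passed (0.863% of all genes), and 0 had an unadjusted p under 0.05 (12.1% of all genes). From 1 h to 4 h, 0 of 7 passed (11.7% of all genes), while RTG1, MKS1 and DLD3 had an unadjusted p under 0.05 (33.4% of all genes). RTG1 was higher at 4 h than at 1 h by 0.50 (SE 0.18, adjusted p = 0.11), DLD3 by 0.38 (SE 0.14, adjusted p = 0.125) and MKS1 by 0.31 (SE 0.09, adjusted p = 0.074). Leaving out a single sample brought 1 of them past the threshold: RTG1 without control replicate 1 or 2 (adjusted p = 0.0447 for each), MKS1 without 1 h replicate 1 (adjusted p = 0.0411) and DLD3 without 1 h replicate 2 (adjusted p = 0.0274). These comparisons rest on the same 1 h and 4 h samples as those against time zero.

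The genes that share chemistry with the targets are set beside them, with no test between genes. Of 5 such paralogues 1 fell at 1 h (1.52% of all genes were lower), 0 passed at 2 h (0.11% either way) and 2 fell at 4 h (3.73% lower). None rose, which is near the background: 189, 1 and 40 of all 5449 genes were higher at 1 h, 2 h and 4 h. CIT1, the mitochondrial citrate synthase, stood at 0.03, 0.06 and 0.03 on the log2 scale at 1 h, 2 h and 4 h, where CIT2 stood at 0.05, 0.11 and 0.12. The mean signals of CIT1 (14.49) and PYC1 (14.14) were also high, and compression was not tested for them either. CIT3, a mitochondrial citrate and methylcitrate synthase, fell by 0.48 (SE 0.08, adjusted p = 0.0339) at 1 h and by 0.64 (SE 0.10, adjusted p = 0.0261) at 4 h, and stood at -0.50 (adjusted p = 0.103) at 2 h. Of the 3 citrate synthase genes, CIT3 was thus the 1 that passed, a call lost at both times without either control replicate. DLD1, the mitochondrial D-lactate dehydrogenase, fell by 0.51 (SE 0.10, adjusted p = 0.0441) at 4 h, where DLD3 stood at 0.21. DLD2, a mitochondrial relative of DLD3, stood at -0.38 (SE 0.16, adjusted p = 0.266) at 4 h. PYC2, the second pyruvate carboxylase gene, stood at 0.12 at 2 h and 0.07 at 4 h, where PYC1 stood at 0.20 and 0.07. The PYC genes are close copies, and whether their probe sets share signal was not tested.

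CIT2 acts in the glyoxylate cycle, and the list drawn around it held 5 genes of the cycle (ACO1, ICL1, MLS1, MDH2 and MDH3) and 4 of the carnitine shuttle, which moves acetyl units (CRC1, CAT2, YAT1 and YAT2). At 4 h 3 of the 5 and 2 of the 4 fell (3.73% of all genes were lower). At that time 0 of the 9 rose, and 40 of all 5449 genes were higher. The median of the 9 was -0.48, against 0.00 for all genes. ICL1, isocitrate lyase, gave signals of 14.03 and 13.94 for the controls, 13.52 and 13.41 for the 1 h samples, 13.52 and 13.44 for the 2 h samples and 12.19 and 12.08 for the 4 h arrays. It fell by 1.86 (SE 0.10, adjusted p = 0.00185) at 4 h, when CIT2 stood at 0.12 (95% interval -0.11 to 0.35). MLS1, malate synthase, fell by 1.03 (SE 0.10, adjusted p = 0.00881). The others that fell at 4 h were ACO1 (-0.56), aconitase, YAT1 (-0.67), a carnitine acetyltransferase, and CRC1 (-0.48), the mitochondrial carnitine carrier. At 1 h, 1 of 9 fell (1.52% of all genes were lower): ICL1 by 0.52 (SE 0.08, adjusted p = 0.032). At 2 h, 0 of 9 passed (0.11% of all genes), and ICL1 stood at -0.505 (SE 0.08, adjusted p = 0.111 in limma). The counts under an unadjusted p of 0.05 were 5, 3 and 7 of 9 at 1 h, 2 h and 4 h. Among all genes 27.5%, 12.3% and 19.8% lay under that value at those times.

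**Figure D3:**
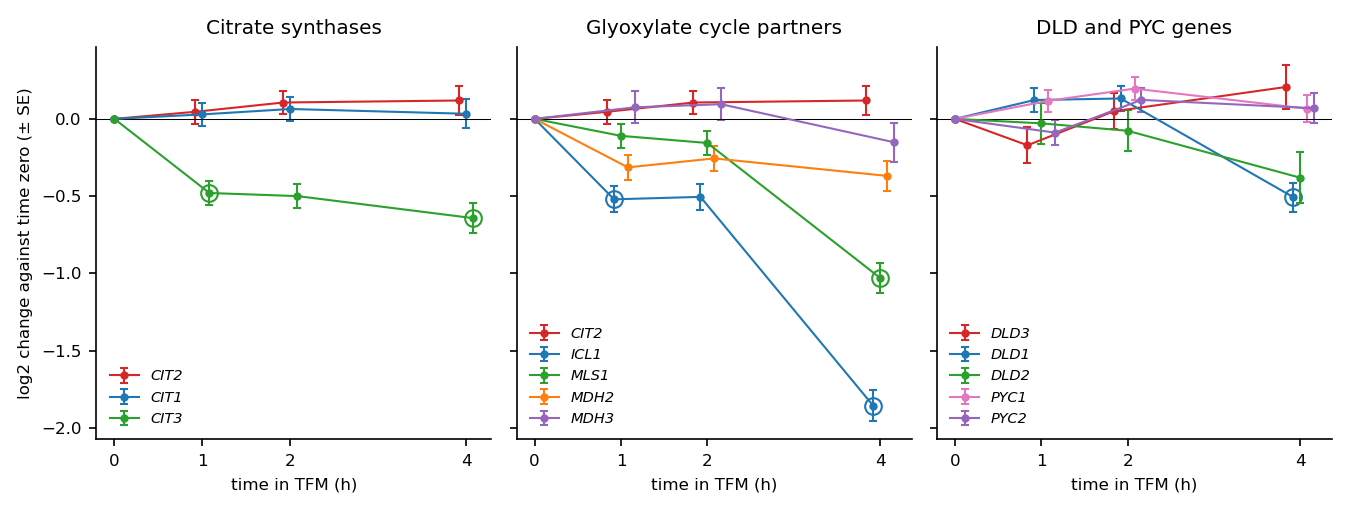
The log2 change against time zero (vertical axis, bars are limma's SE) by hours in TFM (horizontal axis, points shifted sideways for clarity) for the targets beside related enzymes; rings mark an adjusted p under 0.05. At 4 h ICL1 is at -1.86 and MLS1 at -1.03, while CIT2 is at 0.12 and CIT1 at 0.03.

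Other genes of RTG signalling did not pass at any time. The list held LST8 and KOG1, TCO89, TOR1 and TOR2 of the TOR complexes, the 14-3-3 genes BMH1 and BMH2, GRR1, whose product marks free Mks1 for breakdown, and URE2 and GLN3 of nitrogen control. In limma 0 of 10 passed at 1 h, 2 h and 4 h (4.99%, 0.11% and 4.46% of all genes), which is near the background, with medians of -0.15, -0.01 and 0.07. At an unadjusted p under 0.05 there were 1, 0 and 0 (27.5%, 12.3% and 19.8% of all genes). The largest change at 4 h was that of URE2, 0.30 (SE 0.14, adjusted p = 0.299). Rtg2 is also a subunit of the SLIK histone acetyltransferase complex, and 0 of 6 genes of SLIK and the related SAGA complex passed at any time, with 2, 0 and 0 under an unadjusted p of 0.05, also against those background shares. SPT20 had the largest value there, 0.62 (SE 0.26, adjusted p = 0.257) at 4 h, with controls at 10.81 and 10.35.

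Next come the genes that supply 2-oxoglutarate and glutamate. CIT1, ACO1, IDH1 and IDH2 come under RTG control when respiration is impaired and under the HAP complex otherwise. Of these 4, 0 passed at 1 h and at 2 h (4.99% and 0.11% of all genes), with medians of 0.14 and 0.15. ACO1 alone fell at 4 h, when 3.73% of all genes were lower. At each time 1 of the 4 had an unadjusted p under 0.05, against 27.5%, 12.3% and 19.8% of all genes. ACO1 gave signals of 13.99 and 14.02 for the controls, 14.15 and 14.04 for the 1 h samples, 14.14 and 14.10 for the 2 h samples and 13.46 and 13.43 for the 4 h arrays. The 1 h and 2 h samples all lay above both controls, as did 23.5% of all genes at 1 h and 21.1% at 2 h. The estimates for ACO1 at these times were 0.09 and 0.12 (adjusted p = 0.471 and 0.603 in limma). From 2 h to 4 h ACO1 fell by 0.68 (SE 0.09, adjusted p = 0.0456). Of the 4 HAP genes 0 passed at any time, with 1 under an unadjusted p of 0.05 at each time (27.5%, 12.3% and 19.8% of all genes), and HAP3 had the largest change at 4 h, -0.37 (SE 0.10, adjusted p = 0.109).

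In the glutamate list 0 of 8 genes passed at 1 h and 2 h (4.99% and 0.11% of all genes). Under an unadjusted p of 0.05 lay 1, 0 and 4 of 8 at 1 h, 2 h and 4 h (27.5%, 12.3% and 19.8% of all genes). In limma 2 of 8 fell at 4 h (3.73% of all genes were lower). IDP2, the cytosolic NADP-dependent isocitrate dehydrogenase, fell by 0.89 (SE 0.09, adjusted p = 0.0129), from 13.79 and 13.83 in the controls to 12.90 and 12.94 on the 4 h arrays. GDH1, the main biosynthetic glutamate dehydrogenase, fell by 0.57 (SE 0.11, adjusted p = 0.0494). Some retrograde genes respond to loss of respiration without RTG1 to RTG3. Of the 3 listed, 1 passed at 1 h (4.99% of all genes) and 0 at 2 h and 4 h (0.11% and 4.46%). PDR3, which encodes a transcription factor of multidrug resistance, fell by 0.36 (SE 0.07, adjusted p = 0.0455) at 1 h and stood at 0.21 (adjusted p = 0.253) at 4 h. From 1 h to 4 h PDR3 rose by 0.58 (SE 0.09, adjusted p = 0.0173 in limma), when 11.7% of all genes passed. ATO3, an ammonium and acetate transporter family gene named here after its values were seen, read 12.18 and 11.53 in the controls and between 10.91 and 11.16 on all later arrays. Its change at 1 h was -0.92 (SE 0.21, adjusted p = 0.0559). In the same list PDR5, also named after its values were seen, stood at 0.335 (SE 0.09, adjusted p = 0.0991 in limma) at 4 h. All 5 treated samples of PDR5 lay above both controls, as did 5.98% of all genes.

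Against time zero, 3 of the 47 other pathway genes fell at 1 h (1.52% of all genes) and 0 passed at 2 h (0.11% either way). Of the 47, 0 rose against time zero at any time, which is near the background. Of all 5449 genes, 189, 1 and 40 were higher at 1 h, 2 h and 4 h. At 4 h 9 of the 47 fell (3.73% of all genes). The count at 4 h was 2 (ICL1 and MLS1) with control replicate 1 left out, 4 with the other control left out, 1 (ICL1) without either 2 h replicate, and 0 in a fit of the control and 4 h samples alone. That at 1 h was 0 without control replicate 1, without 1 h replicate 2 or without either 2 h replicate, and 9 without 1 h replicate 1. CRC1, DLD1 and GDH1 at 4 h and PDR3 at 1 h did not pass after median centring, nor did DLD1 and GDH1 after quantile normalisation. With a trended prior PDR3 did not pass at 1 h (adjusted p = 0.0531).

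**Figure D4:**
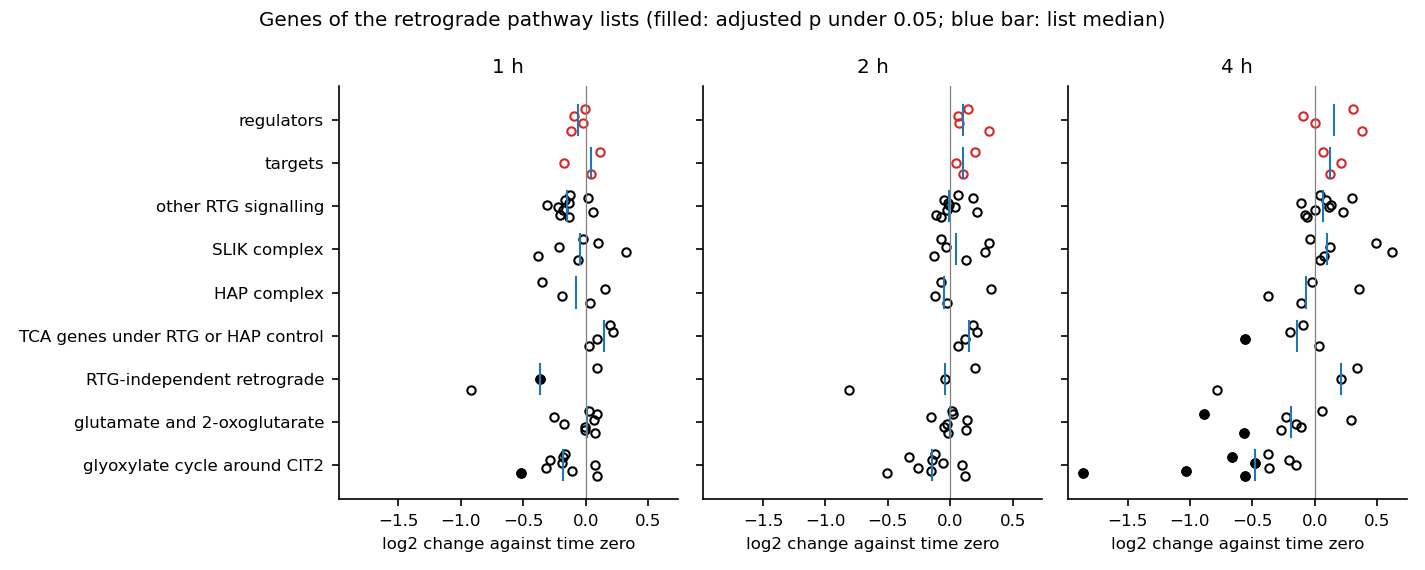
The log2 change against time zero (horizontal axis) at 1 h, 2 h and 4 h for the genes of 9 lists (rows; the paralogues of the targets are in the plot of related enzymes by time); red circles are the 7 retrograde genes, filled circles have an adjusted p under 0.05 and blue bars are list medians. Of the lists drawn, filled circles at 4 h lie in the glyoxylate, glutamate and TCA lists, all below 0, and ACO1 appears in 2 of these.

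The 7 genes were also compared with each other over the samples. Across the 7 RNA samples Pearson's r between pairs of them ran from -0.12 (RTG3 and MKS1) to 0.88 (RTG2 and RTG3), as a description of points that share arrays and scaling. The other negative value was that of DLD3 and PYC1, -0.08. With ranges as small as 0.14, these values cannot tell differing courses from the spread between replicates. Each was also set against the 1126 brighter genes with a range of at least 0.5 (1125 for DLD3). The highest of so many values over 7 samples can be large by selection alone, so shared control was not tested. The genes most like MKS1 were MSN4, a general stress transcription factor (r = 0.99), GSH1, of glutathione synthesis (r = 0.99), and SFP1, a regulator of ribosome biogenesis genes (r = 0.99). Those most like RTG1 were PTH1 (r = 0.99), RIM9 (r = 0.97) and ATG15, a vacuolar lipase (r = 0.97). Those most like CIT2 were EBP2, of ribosomal RNA processing (r = 0.95), PDR16 (r = 0.94) and TFA1 (r = 0.94), although the whole range of CIT2 was 0.14. DLD3 was most like TYE7, a regulator of glycolytic genes (r = 0.95), RAD4 (r = 0.95) and DCW1 (r = 0.93). PYC1 was most like IZH1 (r = 0.94), FCY2, the cytosine permease (r = 0.93), and HRP1 (r = 0.83). For RTG2 these were BDF2 (r = 0.87), YBL100W-B (r = 0.81) and UBP3 (r = 0.76), and for RTG3 they were PSP1 (r = 0.73), BDF2 (r = 0.68) and CET1 (r = 0.68).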

How the data were processed

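Total RNA from 7 samples was labelled with biotin and hybridised to 8 Affymetrix yeast arrays. The deposited values are log2 signals made by RMA, per the submitters' processing notes, with no version named; the log base was judged from their range. RMA brings arrays to a shared distribution, so a change in total mRNA per cell is not seen. Of 5814 probe sets 5498 had 1 gene name, 0 several and 316 none; the brightest probe set of a gene was kept, and 12 symbols were updated from RefSeq. The 4 h arrays were averaged. All 5449 genes were fitted with limma 3.58.1 in R 4.3.3 (lmFit, eBayes, 1 shared spread, 3 residual degrees of freedom), which assumes that the lone 4 h sample varies like the others. P-values were adjusted by Benjamini-Hochberg over all genes within each comparison, at a threshold of 0.05. Replicates are called biological, but separate cultures are not stated, so the p-values reflect the spread among these samples, which may be technical. The root mean square SD between samples was 0.16 in controls, 0.17 at 1 h and 0.085 at 2 h.

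The 7 genes and the pathway lists were chosen with earlier results of these data known. The text names all 7, the paralogues of the targets, list genes that passed or, failing any, the one with the largest change at 4 h, and the 3 genes of highest Pearson r with each among genes above the 25th percentile whose range was at least 0.5. The fit was tested on simulated data. Alternatives left out each sample, changed the scaling, the filter, the prior, the groups in the fit, the block and the averaging. The small number of arrays limits the precision. Promoter sequences and genome coordinates were not used here.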

Additional observations from a re-analysis of the deposited data

How the results depend on the processing

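Of the 7 retrograde genes, 0 passed at 1 h, at 2 h, from 1 h to 2 h or from 2 h to 4 h under any alternative run. With the technical 4 h arrays as separate samples, 1 passed at 4 h, 1 in the F test and 3 from 1 h to 4 h; leaving out 1 sample gave 0 to 1 from 1 h to 4 h. Estimates near 0 changed sign: at 1 h MKS1 stood at 0.05 after median centring and 0.05 after quantile normalisation, and RTG2 at 0.03 and 0.02. When 1 sample or 4 h array was left out, the 1 h estimates ran from -0.01 to 0.10 for CIT2, -0.05 to 0.04 for MKS1, -0.33 to 0.09 for RTG1, -0.08 to 0.03 for RTG2 and -0.20 to 0.02 for RTG3. RTG2 at 4 h ran from -0.04 to 0.05 and RTG3 at 2 h from -0.05 to 0.18. None of these passed.

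Over all genes, 272 passed at 1 h, 6 at 2 h and 243 at 4 h, and 1 to 1005, 0 to 21 and 18 to 353 when 1 sample was left out. Fitting just the control and 1 other group gave 27, 15 and 1, and separate 4 h arrays gave 813, 63 and 994. At 1 h genes above the 25th percentile gave 124. At 2 h median centring gave 2, quantile normalisation 0, genes above the 25th percentile 27 and a trended prior 43. Of the 47 other pathway genes, 0 to 9, 0 to 1 and 1 to 9 passed when 1 sample was left out. Fitting just those groups gave 0 at 1 h and 0 at 4 h, and separate 4 h arrays gave 5, 2 and 16. At 2 h genes above the 25th percentile gave 2 and a trended prior 3. Causes were not tested. Pairing by replicate number was not evident, which 2 samples per group cannot settle: same-numbered deviations correlated by 0.10, 0.19 and 0.03. With the replicate number as a block, 494 genes passed at 1 h and 0 at 2 h, and 0 of the 7. In that fit CRC1 (adjusted p = 0.062), DLD1 (adjusted p = 0.0575) and GDH1 (adjusted p = 0.0658) did not pass at 4 h.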
